A study of Mus musculus with 30 samples.

Results

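RNA from the whole liver of *Mtm1*-/y mice was compared with that of WT littermates. The comparison holds the 4 *Mtm1*-/y and 3 WT liver libraries among the 30 libraries of the series, whose remaining libraries come from the gastrocnemius, the diaphragm and the heart. All mice were males of 5 weeks on a pure 129Pas background, and the *Mtm1*-/y mice carried a constitutive knockout, which is not limited to the liver or to any cell type. The authors deposited raw read counts for 36103 genes, and the liver libraries held 26965151 to 41147747 counts. A count was seen in at least 1 liver for 27401 genes, and 14305 genes passed the filter on low counts and were tested. Levels are given as CPM, counts scaled to a library of 1000000 after TMM normalization, in the order of the libraries WT 1, 2 and 3 and *Mtm1*-/y 1, 2, 3 and 4, and log2 fold changes (log2FC, with their SE, from edgeR also where the adjusted p is that of DESeq2) compare *Mtm1*-/y with WT. The labels do not say how the animals relate to each other, so p-values measure the spread between these libraries.

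*Mtm1* encodes myotubularin, a lipid phosphatase that removes a phosphate from phosphoinositides of endosomal membranes. Its loss in men causes X-linked myotubular myopathy, a severe disease of skeletal muscle in which some patients also develop cholestasis, a failure of bile flow. The liver makes bile acids, glucose, most plasma proteins and the enzymes that break down drugs, and each of these functions leaves a clear set of abundant transcripts. The comparison therefore asks which of these transcripts differ in an organ that is not a muscle.

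The libraries were liver by their content, but they did not all hold the same RNAs. The summed level of 12 hepatocyte markers was 150087 to 168309 CPM in WT and 156366 to 183543 CPM in *Mtm1*-/y livers, and *Alb*, the gene of serum albumin, took 9.06% to 12.6% of the counts. *Malat1*, a long noncoding RNA retained in the nucleus, was at 2555, 2231 and 1233 CPM in the WT livers and at 1838 CPM in *Mtm1*-/y library 1, but at 63.8, 121 and 53.2 CPM in *Mtm1*-/y libraries 2, 3 and 4. The mitochondrial ribosomal RNA *mt-Rnr2* followed the same order, with 16.2 to 31.8 CPM in WT, 39.4 CPM in *Mtm1*-/y library 1 and 2.31, 3.83 and 2.42 CPM in the other *Mtm1*-/y libraries. For *Malat1* and *mt-Rnr2* the *Mtm1*-/y library 1 lay with the WT livers, and the other 3 lay apart. *Lncpint*, *Kcnq1ot1* and *Mir6236* showed the same split, but not every RNA examined did. *Neat1* was at 724, 686 and 707 CPM in WT and at 472, 320, 957 and 353 CPM in *Mtm1*-/y livers. *Rn7sk* was at 15.7 CPM in *Mtm1*-/y library 3, within the WT range. *mt-Rnr1* was at 6.39, 8.01 and 4.84 CPM in *Mtm1*-/y libraries 2, 3 and 4, against 8.27 to 11.2 CPM in WT. The highest skeletal myofibre markers were those of *Mtm1*-/y library 2 (144 CPM summed over 11 genes, against 9.26 to 44.6 CPM in the other 6 libraries), which also had the lowest Kupffer cell markers (60.3 CPM summed over 10 genes, against 203 to 282 CPM). In *Mtm1*-/y library 3 were the highest cholangiocyte markers (116 CPM over 7 genes, against 54.0 to 64.4 CPM) and the highest pancreatic acinar markers (10.0 CPM over 10 genes, against 0.488 to 1.505 CPM). The part of these differences in the results below was not tested, and the values of *Mtm1*-/y library 1 against WT are given where they bear on a result.

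**Figure D1:**
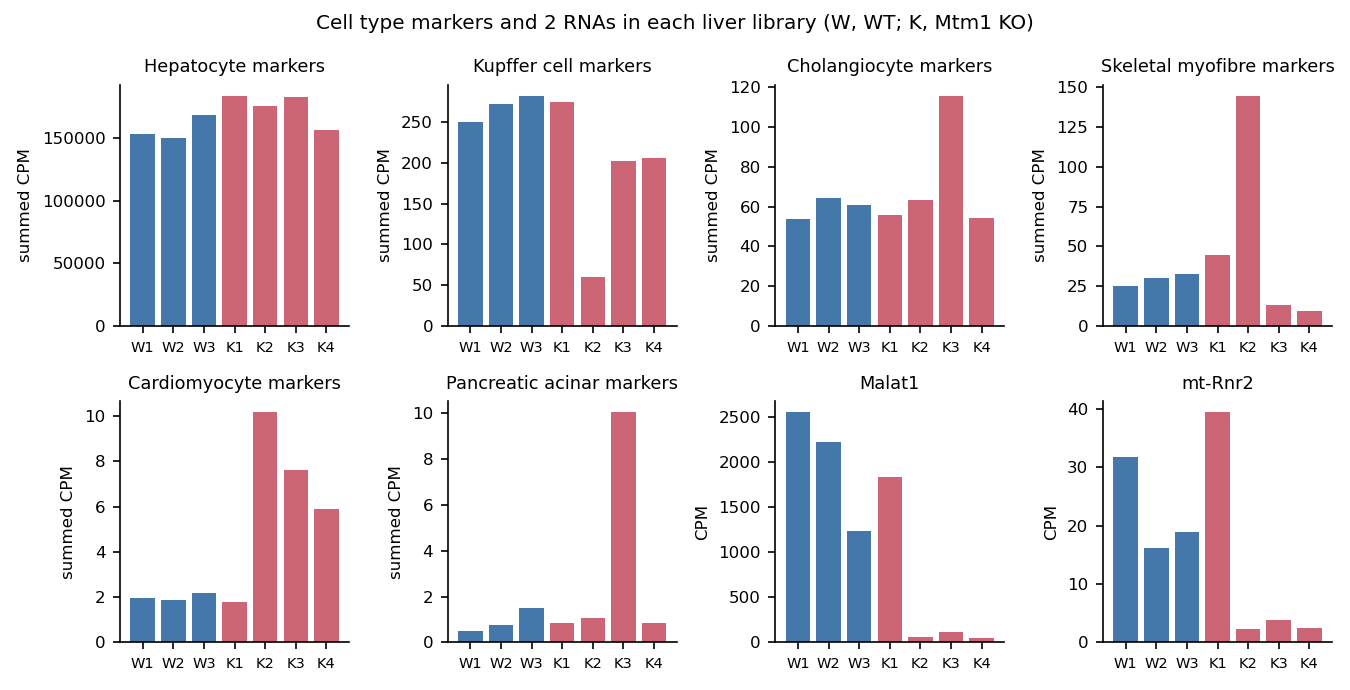
Summed CPM of 6 cell type marker lists and CPM of 2 RNAs (vertical axes, linear from 0) in each of the 7 liver libraries (horizontal axes; W, WT in blue; K, *Mtm1*-/y in red). *Malat1* and *mt-Rnr2* are low in *Mtm1*-/y libraries 2, 3 and 4, where the cardiomyocyte markers reach 5.89 to 10.2 CPM. *Mtm1*-/y library 1 lies within the WT range for *Malat1*, just below it for the cardiomyocyte markers and above it for *mt-Rnr2*. It also lies above the WT range for the hepatocyte and skeletal myofibre markers.

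The knockout was visible in the targeted gene. *Mtm1* (X:71210767-71315691, plus strand, GRCm38) was at 12.5, 18.95 and 14.8 CPM in WT and at 5.47, 6.39, 3.37 and 5.18 CPM in *Mtm1*-/y livers. The groups did not overlap, and the mean was 5.10 CPM in *Mtm1*-/y against 15.4 CPM in WT livers. The log2FC was -1.60 (SE 0.23, edgeR), and *Mtm1* fell by DESeq2 with an adjusted p of 1.23e-06. The counts are summed over the whole gene and do not say which exons the remaining reads came from.

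Across the liver transcriptome the genotype difference was small. By edgeR's quasi-likelihood test 0 of the 14305 genes passed both an adjusted p below 0.05 and a log2FC beyond 1 in either direction (0%), the rule for a call, the smallest adjusted p was 0.293, and 625 genes (4.37%) had an unadjusted p under 0.05, 241 higher (1.68%) and 384 lower (2.68%) in *Mtm1*-/y. By DESeq2, the tool of the study, 12 of 15343 genes with an adjusted p were called at the same thresholds (0.0782%), 3 higher (0.0196%) and 9 lower (0.0587%). The study also named 12 liver genes, but that set holds *Zfp36* in place of *Gm44667*. Here *Zfp36* passed the adjusted p but not the fold threshold, with a DESeq2 log2FC of -0.96. At the adjusted p alone DESeq2 passed 25 genes (0.163%), of which 5 rose (0.0326%) and 20 fell (0.13%). The median log2FC of all genes was 0.01, and the middle 90% lay between -0.51 and 0.41. For 8734 of the 9298 genes at a mean of at least 5 CPM (93.9%), the 95% interval of the log2FC lay within -1 and 1, so that a change of more than 2-fold lay outside the interval for most expressed genes. None of 6 principal components passed a test between the genotypes, and the smallest adjusted p over them was 0.343 by an exact two-sided permutation test, which with 3 and 4 libraries cannot give a p under 0.0286 before adjustment, or under 0.171 after it for a single component.

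The count of called genes moved when single libraries were left out. Without *Mtm1*-/y library 1, DESeq2 called 105 genes and edgeR 15, and among the genes then gained by DESeq2 were *Malat1* and *mt-Rnr2*. Without WT library 1, edgeR called 2 genes, *Phf11c* and *Setdb2*, and DESeq2 called 7, the same number as without WT library 2. With the 3 WT livers set against *Mtm1*-/y library 1 alone, a comparison added after seeing the data in which the lone library is assumed to vary like the WT livers, DESeq2 called 43 genes and edgeR 0, with 689 genes at an unadjusted p under 0.05 by edgeR. Of the 12 genes, 5 were among these 43, namely *Phf11c*, *Setdb2*, *Arrdc2*, *Mtm1* and *Pim3*.

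**Figure D2:**
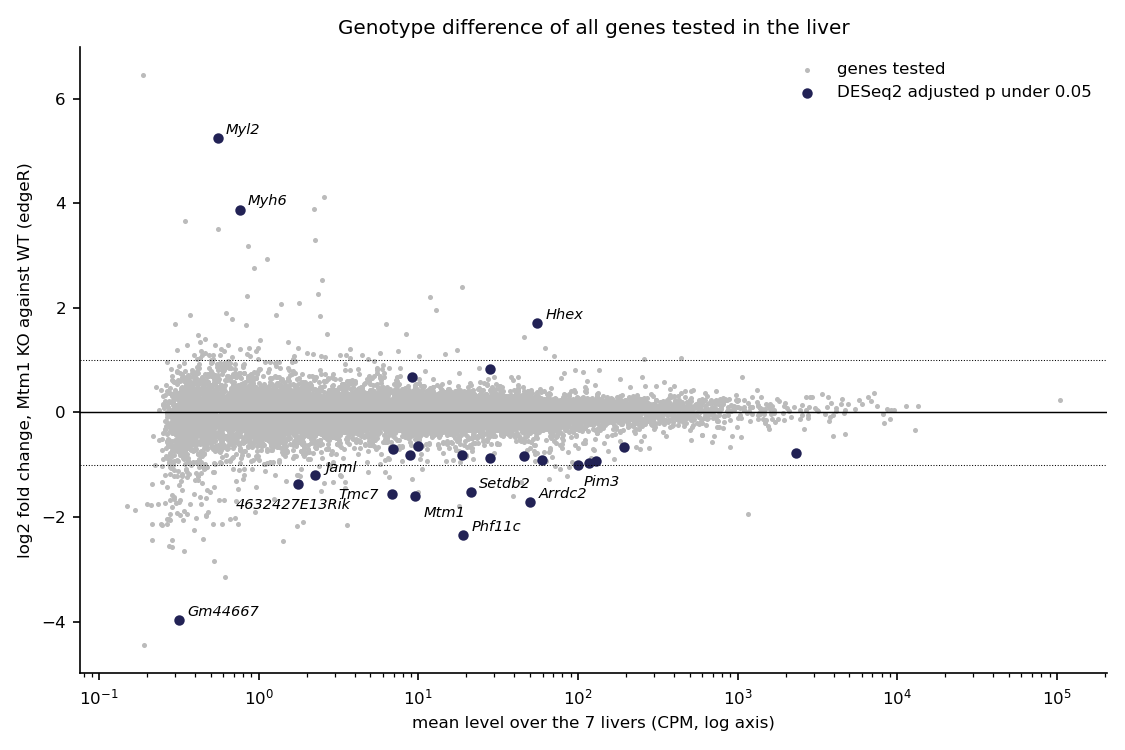
Log2 fold change between *Mtm1*-/y and WT livers (vertical axis, edgeR) against the mean level over the 7 libraries (horizontal axis, CPM, log scale) for the 14305 genes tested, in grey, with the 25 genes at a DESeq2 adjusted p under 0.05 in dark blue and dotted lines at -1 and 1. Of the dark points, 20 lie below 0 and 5 above, and *Myl2*, *Myh6* and *Gm44667* lie at a mean near or below 1 CPM.

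Among the genes that fell was a pair of neighbours on chromosome 14, *Phf11c* and *Setdb2*, the former with the smallest DESeq2 adjusted p of all genes. *Phf11c* (14:59380833-59395381) is a gene of the PHD finger family, and *Setdb2* (14:59402009-59440884) encodes a histone H3 methyltransferase. Both lie on the minus strand, with 6627 bases between them. *Phf11c* was at 19.2, 43.6 and 43.5 CPM in WT and at 6.08, 9.72, 6.03 and 6.16 CPM in *Mtm1*-/y livers. *Setdb2* was at 21.2, 40.4 and 40.6 CPM in WT and at 10.2, 14.5, 10.9 and 11.6 CPM in *Mtm1*-/y livers. The genotypes did not overlap for either gene, WT library 1 was the lowest WT liver for each, and *Mtm1*-/y library 1 was as low as the other *Mtm1*-/y livers. The log2FC of *Phf11c* was -2.34 (SE 0.30, edgeR adjusted p = 0.293, DESeq2 adjusted p = 6.54e-10) and that of *Setdb2* was -1.53 (SE 0.23, edgeR adjusted p = 0.307, DESeq2 adjusted p = 6.59e-06). Both genes, with *Mtm1* and *Arrdc2*, were the 4 that DESeq2 called in each of the 7 fits that left out 1 library. Per kilobase of exon the level of *Phf11c* fell from 10.2 to 2.02 CPM and that of *Setdb2* from 8.42 to 2.92 CPM.

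The neighbouring genes gave smaller values. Of the 10 other genes tested from 1000000 bases before *Phf11a* to 1000000 bases after *Setdb2*, 0 had an unadjusted p under 0.05 by edgeR, and their log2FC ran from -0.19 to 0.40. The nearest relatives were low, with *Phf11d* at a mean of 1.93 CPM in WT against 1.70 CPM in *Mtm1*-/y livers (log2FC -0.19, SE 0.26) and *Phf11b* at 0.394 and 0.346 CPM (log2FC -0.16, SE 0.44). The *Phf11* genes are close copies of each other and only uniquely aligned reads were counted, so the split of reads between them is uncertain. *Cab39l*, the gene of a scaffold protein of the LKB1 kinase, starts 87 bases from *Setdb2* on the opposite strand, with a mean of 77.0 CPM in WT against 72.9 CPM in *Mtm1*-/y livers (log2FC -0.08, SE 0.17). Its exons overlap those of *Cdadc1* on the other strand (means of 53.3 and 57.9 CPM), and the strand setting of the counting is not given. The start region shared by *Setdb2* and *Cab39l* is shown because *Setdb2* fell and *Cab39l*, read in the other direction from it, had a log2FC near 0. It covers 14:59440831-59441130 on the minus strand (RefSeq, GRCm38.p6), with the bases between the 2 annotated gene starts in capitals.
Setdb2: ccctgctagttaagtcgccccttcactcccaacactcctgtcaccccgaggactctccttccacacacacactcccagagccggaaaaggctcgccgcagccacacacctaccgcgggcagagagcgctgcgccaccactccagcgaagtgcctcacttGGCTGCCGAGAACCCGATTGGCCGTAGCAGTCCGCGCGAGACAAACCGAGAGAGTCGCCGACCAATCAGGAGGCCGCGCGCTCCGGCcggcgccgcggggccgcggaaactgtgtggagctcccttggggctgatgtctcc

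**Figure D3:**
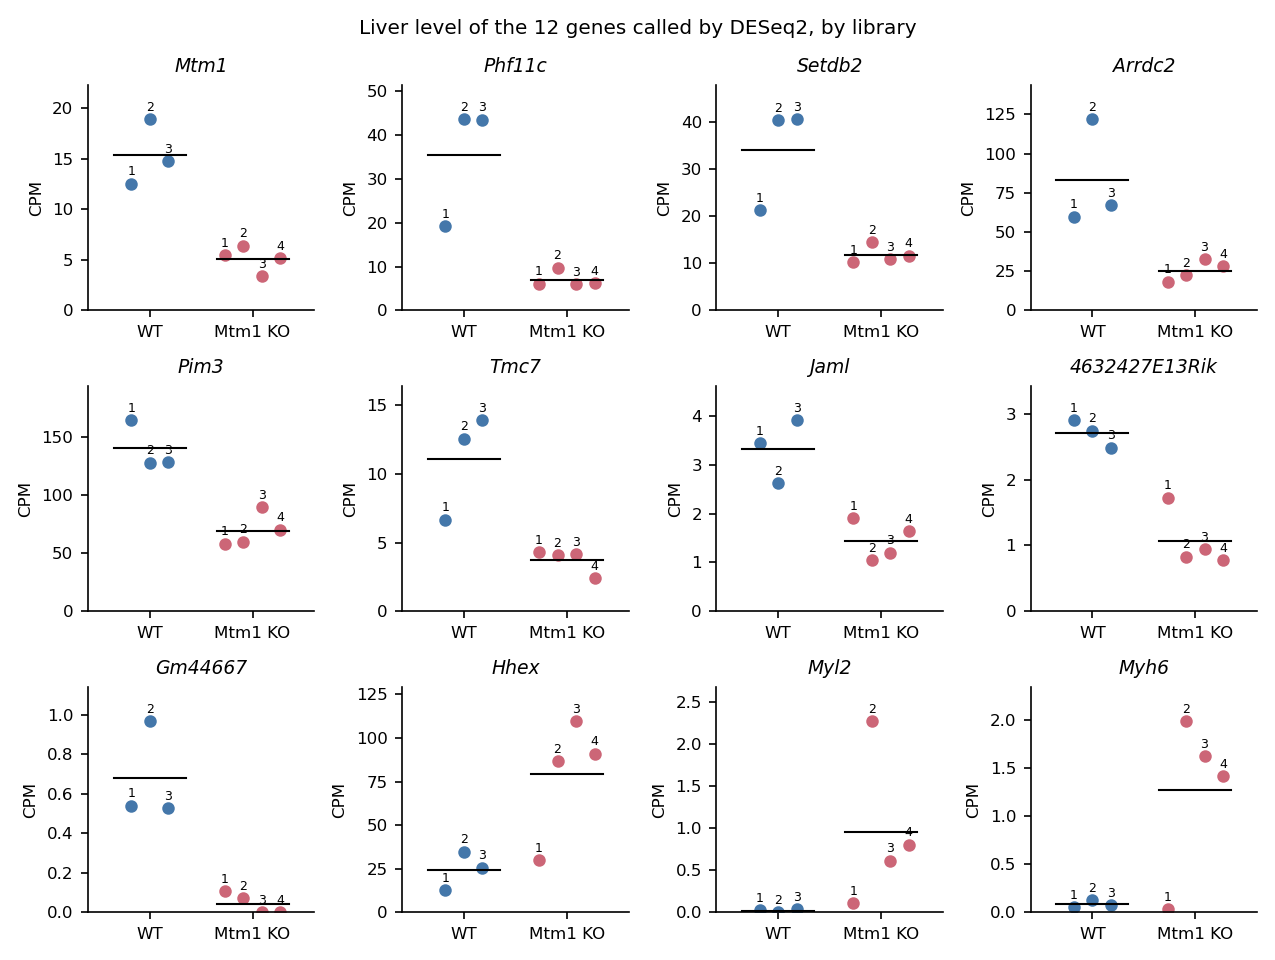
CPM of the 12 genes called by DESeq2 (vertical axes, linear from 0) in the 3 WT (blue) and 4 *Mtm1*-/y (red) livers, each point a library with its number and each line a group mean. For *Mtm1*, *Phf11c*, *Setdb2* and *Arrdc2* the *Mtm1*-/y library 1 lies with the other *Mtm1*-/y livers, and for *Hhex* and *Myh6* with the WT livers.

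*Arrdc2*, an alpha-arrestin that links membrane proteins to ubiquitin ligases, was at 59.9, 122 and 67.2 CPM in WT and at 18.3, 22.5, 32.5 and 28.2 CPM in *Mtm1*-/y livers. Every *Mtm1*-/y liver lay below every WT liver, and *Mtm1*-/y library 1 was the lowest of all. The log2FC was -1.71 (SE 0.28, edgeR adjusted p = 0.385, DESeq2 adjusted p = 8.85e-06). Of the 5 alpha-arrestins tested, *Arrdc2* alone passed DESeq2.

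*Arrdc2* belongs to a list of glucocorticoid-responsive genes, whose transcription rises when the glucocorticoid receptor binds its hormone. Of its 19 members tested, 5 were lower at an unadjusted p under 0.05 by edgeR (2.68% of all genes tested were) and 0 were higher (1.68% of all genes), and DESeq2 passed *Arrdc2* and *Tat*. The median log2FC of the list was -0.44, against 0.01 for all genes. This list and those below were chosen with earlier results of these data known, so nothing is read from the share of members that passed. Leaving out each library in turn, 4 to 8 members were lower (1.89% to 4.5% of all genes were in these fits), with the 8 from the fit without *Mtm1*-/y library 1, and the median ran from -0.51 to -0.22. In the fit against *Mtm1*-/y library 1 alone, 5 members were lower and 1 was higher (2.3% and 2.33% of all genes), with a median of -0.41. *Tat*, tyrosine aminotransferase, was at 2922, 2859 and 3324 CPM in WT and at 1871, 1524, 1590 and 2070 CPM in *Mtm1*-/y livers, without overlap, and it fell by DESeq2 with a log2FC of -0.78 (SE 0.15, adjusted p = 0.000341). *Mfsd2a*, a lysolipid transporter, was at 149, 111 and 150 CPM in WT and at 92.3, 72.0, 94.0 and 109 CPM in *Mtm1*-/y, a log2FC of -0.58 (SE 0.16) that did not pass DESeq2. *Ddit4*, an inhibitor of mTORC1 named here after its values were seen, had means of 63.9 and 21.1 CPM and a log2FC of -1.59 (SE 0.53). *Nr3c1*, the receptor itself, had a log2FC of 0.04 (SE 0.10), and 2 further members that respond to the hormone, *Tsc22d3* at -0.46 (SE 0.27) and *Fkbp5* at -0.51 (SE 0.46), did not pass either test.

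Genes of gluconeogenesis and fasting, by which the liver makes glucose from amino acids and lactate, overlap with this list in *Tat* and *Pck1*. Of 20 members tested, 5 were lower at an unadjusted p under 0.05 by edgeR and 0 higher, against 2.68% and 1.68% of all genes, with a list median of -0.10, and DESeq2 passed *Klf15* and *Tat*. Leaving out each library in turn gave 3 to 6 lower and 0 to 2 higher (1.89% to 4.5% and 1.05% to 3.08% of all genes). In the fit against *Mtm1*-/y library 1 alone the median was -0.39. *Klf15*, a transcription factor of amino acid breakdown, was at 245, 231 and 266 CPM in WT and at 175, 135, 146 and 167 CPM in *Mtm1*-/y livers, and it fell by DESeq2 with a log2FC of -0.67 (SE 0.11, adjusted p = 0.00117). *Pck1*, which makes phosphoenolpyruvate, was at 4352, 4411 and 5331 CPM in WT and at 3509, 3775, 3102 and 3424 CPM in *Mtm1*-/y livers (log2FC -0.44, SE 0.15, DESeq2 adjusted p = 0.186). *Foxo1*, a transcription factor of the fasted state, had a log2FC of -0.75 (SE 0.20) and *Sds*, serine dehydratase, one of -0.65 (SE 0.25), and neither passed DESeq2. *Ppp1r3c*, which brings a phosphatase to glycogen, was at 161, 202 and 167 CPM in WT and at 72.7, 89.2, 113 and 97.1 CPM in *Mtm1*-/y livers, and it fell by DESeq2 (log2FC -0.93, SE 0.15, adjusted p = 0.000542).

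The promoter of *Klf15* is shown because the gene fell with *Tat* and its start region holds several copies of short motifs read by clock and cAMP-responsive factors. It covers 6:90462326-90462625 on the plus strand (RefSeq, GRCm38.p6), with matches to CACGTG and TGACG on either strand in capitals, and the last CACGTG overlaps a TGACG on the opposite strand.
Klf15: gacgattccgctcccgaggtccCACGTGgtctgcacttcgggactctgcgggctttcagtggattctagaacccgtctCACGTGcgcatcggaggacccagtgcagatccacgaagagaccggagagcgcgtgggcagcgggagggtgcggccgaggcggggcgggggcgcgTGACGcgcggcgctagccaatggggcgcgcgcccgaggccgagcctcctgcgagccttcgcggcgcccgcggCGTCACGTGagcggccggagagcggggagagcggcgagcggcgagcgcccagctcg
CACGTG occurred in 7.15% and TGACG in 20.8% of the 32851 promoter windows of the same length. Of the 25 genes that passed DESeq2, 20 had an entry, and 3 of these held CACGTG (*Klf15*, *Ppp1r3c* and *Mtm1*) and 3 held TGACG. The same windows were searched for other motifs. The glucocorticoid response element, found in 0.475% of windows, was held by 0 of the 20 genes. The core of the interferon response element (3.44% of windows) was held by 2 and a C-rich motif (3.56%) by 0. All percentages count windows, while the gene counts take any window of a gene, and some genes had several. The percentages and the gene counts are therefore not compared. A match describes the letters of the window and no more.

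Short-lived transcripts and stress genes gave a mixed picture. *Pim3*, a serine/threonine kinase, was at 165, 128 and 128 CPM in WT and at 58.2, 60.0, 89.4 and 70.4 CPM in *Mtm1*-/y livers, and it fell by DESeq2 (log2FC -1.01, SE 0.17, adjusted p = 0.000341). *Zfp36*, whose protein destabilizes mRNAs, was at 152, 146 and 191 CPM in WT and at 70.3, 72.0, 109 and 81.0 CPM in *Mtm1*-/y livers, and it fell with a log2FC of -0.97 (SE 0.17, DESeq2 adjusted p = 0.00113). Neither gene overlapped between the genotypes. Of the 28 immediate early and short-lived transcripts tested, 3 were lower at an unadjusted p under 0.05 and 0 higher, against 2.68% and 1.68% of all genes. The list median of -0.06 ran from -0.37 to 0.19 when each library was left out, with 2 to 6 lower (1.89% to 4.5% of all genes). *Egr1*, the third, was highest in WT library 3 (6.09, 13.3 and 72.0 CPM in WT and 6.14 to 13.8 CPM in *Mtm1*-/y), and its groups overlapped. In the endoplasmic reticulum and integrated stress list, 3 of 23 members were lower and 0 higher at an unadjusted p under 0.05, namely *Trib3* (log2FC -0.77, SE 0.22), *Gdf15* (log2FC -0.96, SE 0.31) and *Herpud1* (log2FC -0.52, SE 0.20), and none of them passed DESeq2. These counts stand beside the same 2.68% of all genes lower and 1.68% higher. The median of this list ran from -0.31 to 0.18 when each library was left out, with 2 to 5 lower (1.89% to 4.5% of all genes).

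*Hhex*, a homeobox gene of liver and bile duct development, was the called rise at a level above 5 CPM, but it was not seen in every liver. It was at 12.8, 34.8 and 25.6 CPM in WT and at 30.0, 86.8, 110 and 90.9 CPM in *Mtm1*-/y livers. *Mtm1*-/y library 1 lay within the WT range, and the other 3 lay above it, the same 3 that were low in *Malat1*. DESeq2 called *Hhex* higher (log2FC 1.70, SE 0.46, DESeq2 adjusted p = 0.0262), and it passed in 2 of the 7 fits that left out a library. Against *Mtm1*-/y library 1 alone its log2FC was 0.31 (SE 0.46). Of the 22 hepatocyte transcription factors tested, 3 had an unadjusted p under 0.05 and a higher level, and 2 a lower one (1.68% and 2.68% of all genes). *Foxa2*, a pioneer factor of endoderm, was at 10.3, 8.33 and 9.59 CPM in WT and at 10.7, 15.4, 17.9 and 14.8 CPM in *Mtm1*-/y livers (log2FC 0.64, SE 0.18, DESeq2 adjusted p = 0.269). *Cebpb* had the opposite sign, at 13.6, 11.5 and 20.1 CPM in WT and at 9.03, 4.91, 8.69 and 5.67 CPM in *Mtm1*-/y livers (log2FC -1.09, SE 0.27, DESeq2 adjusted p = 0.0653).

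The other 2 called rises were heart muscle genes at very low levels. *Myl2*, a myosin light chain of the ventricle, had 1, 0 and 1 counts in the WT livers and 3, 63, 19 and 33 counts in the *Mtm1*-/y livers (DESeq2 adjusted p = 0.0247). *Myh6*, the alpha myosin heavy chain, had 2, 4 and 2 counts in WT and 1, 55, 50 and 58 counts in *Mtm1*-/y (DESeq2 adjusted p = 0.0414). *Mybpc3*, a cardiac sarcomere gene, had 0 counts in the WT livers and 0, 15, 13 and 15 counts in the *Mtm1*-/y livers. The ratio of *Mtm1*-/y to WT counts per library size was 44.7 for *Myl2*, with an exact 95% interval of 12.1 to 374 that covers counting error only. *Mtm1*-/y library 1 had no more *Myh6* and *Mybpc3* than the WT livers, and the summed level of 11 cardiomyocyte markers was 1.98, 1.87 and 2.18 CPM in WT and 1.80, 10.2, 7.62 and 5.89 CPM in *Mtm1*-/y livers. Of the 11 markers 7 passed the filter on low counts, several only through the *Mtm1*-/y libraries where they were high, so no count of tests is given for them. No cardiomyocyte marker was at 0 in all 7 livers, and the part of heart RNA in the 2 calls was not tested.

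Among the other genes that fell, *Tmc7*, a gene of the transmembrane channel-like family, was at 6.68, 12.6 and 13.9 CPM in WT and at 4.32, 4.08, 4.15 and 2.39 CPM in *Mtm1*-/y livers (log2FC -1.57, SE 0.29, DESeq2 adjusted p = 0.000661). *Jaml*, an adhesion molecule of leukocytes, was at 3.44, 2.62 and 3.91 CPM in WT and at 1.91, 1.05, 1.20 and 1.64 CPM in *Mtm1*-/y livers (DESeq2 adjusted p = 0.0414), and its exons overlap those of a gene on the other strand. A noncoding RNA from a bidirectional promoter, *4632427E13Rik*, was at 2.90, 2.74 and 2.48 CPM in WT and at 1.73, 0.831, 0.941 and 0.782 CPM in *Mtm1*-/y livers (DESeq2 adjusted p = 0.0414). *Gm44667*, a transcript annotated as TEC within the span of *Mef2a*, had 21, 30 and 14 counts in WT and 3, 2, 0 and 0 counts in *Mtm1*-/y livers, and the ratio of WT to *Mtm1*-/y counts was 17.1 (exact 95% interval 6.98 to 54.6, counting error only). The 4 genes did not overlap between the genotypes, and neither did 3.47% of all genes tested, lower in *Mtm1*-/y.
*Neb*, the giant thin filament protein of skeletal muscle, was at 24.6, 27.5 and 23.1 CPM in WT and at 15.3, 14.05, 13.98 and 13.75 CPM in *Mtm1*-/y livers, and it fell by DESeq2 with a log2FC of -0.81 (SE 0.11, adjusted p = 1.23e-06). The summed skeletal myofibre markers followed another order, at 25.01, 30.3 and 32.6 CPM in WT and 44.6, 144, 13.3 and 9.26 CPM in *Mtm1*-/y livers. *Cep85l*, a centrosomal gene, was at 68.2, 92.3 and 82.9 CPM in WT and at 44.1, 43.5, 36.2 and 48.9 CPM in *Mtm1*-/y livers (log2FC -0.91, SE 0.14, DESeq2 adjusted p = 7.87e-05). *Neb*, *Cep85l*, *Pim3* and *Tat* passed the adjusted p of DESeq2 in each of the 7 fits that left out a library. *Tmc7* passed in 5 of these fits, *Gm44667* and *Myl2* in 2 and *Myh6* in 1. *Jaml* and *4632427E13Rik* passed in 1, the fit without *Mtm1*-/y library 1. Against that library alone the log2FC was -1.34 for *Tmc7*, -0.79 for *Jaml*, -0.64 for *4632427E13Rik* and -2.59 for *Gm44667*. Of the 25 genes that passed DESeq2, 23 did not overlap between the genotypes (6.09% of all genes tested did not), the exceptions being *Hhex* and *Myh6*. These genes were chosen by the same comparison, so nothing is read from the share.

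The 2 further rises by DESeq2 were smaller than 2-fold. *Abcd2*, a peroxisomal transporter of very long-chain fatty acids, was at 15.1, 18.6 and 24.7 CPM in WT and at 39.1, 31.6, 34.4 and 33.0 CPM in *Mtm1*-/y livers (log2FC 0.83, SE 0.17, DESeq2 adjusted p = 0.00882). *Cfb*, complement factor B, was at 6.22, 7.43 and 6.96 CPM in WT and at 9.82, 10.5, 12.8 and 10.7 CPM in *Mtm1*-/y livers (log2FC 0.67, SE 0.14, DESeq2 adjusted p = 0.0262). Neither gene overlapped between the genotypes. Of the 7 DESeq2 fits that left out 1 library, *Abcd2* passed in 3 and *Cfb* in 1, with highest adjusted p-values of 0.272 and 0.888.

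Genes of bile differed little. At an unadjusted p under 0.05 by edgeR, 1.68% of all genes were higher and 2.68% lower. Of 14 genes of bile acid synthesis, 1 was higher at an unadjusted p under 0.05, *Cyp39a1*, an oxysterol hydroxylase (40.1, 57.8 and 79.5 CPM in WT livers, against 117, 137, 79.7 and 62.3 CPM in *Mtm1*-/y, log2FC 0.75, SE 0.31). *Cyp7a1*, the rate-limiting enzyme of bile acid synthesis, had means of 46.9 and 61.4 CPM and a log2FC of 0.39 (SE 0.43), and *Cyp8b1* and *Cyp27a1*, of the classical and alternative routes, had log2FC of 0.08 (SE 0.20) and -0.28 (SE 0.19). Of 15 transport genes, 1 was higher, *Slc10a1*, which takes bile acids up from the blood (807, 719 and 791 CPM in WT livers, against 860, 964, 868 and 966 CPM in *Mtm1*-/y, log2FC 0.24, SE 0.11). Of the 15 genes of the canaliculus and of inherited cholestasis, 0 had an unadjusted p under 0.05, and their log2FC ran from -0.27 to 0.29. *Nr0b2*, the small heterodimer partner that represses *Cyp7a1*, was lower, at 57.2, 73.7 and 69.3 CPM in WT and at 26.7, 6.65, 45.4 and 27.1 CPM in *Mtm1*-/y livers (log2FC -1.33, SE 0.47), without overlap. By DESeq2 *Nr0b2* did not pass with all libraries, but it was called without *Mtm1*-/y library 2 and without *Mtm1*-/y library 3. Its log2FC ran from -1.72 to -1.01 when each library was left out, and was -1.31 against *Mtm1*-/y library 1 alone. None of the genes of the 4 bile lists passed DESeq2 with all libraries.

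Most of the remaining lists gave few genes at an unadjusted p under 0.05, and several depended on single livers. Over all genes 1.68% were higher and 2.68% lower with all libraries. When each library was left out, 1.05% to 3.08% of all genes were higher and 1.89% to 4.5% lower. Of 35 cytochrome P450 genes, 2 were higher at an unadjusted p under 0.05 and 0 lower, *Cyp4a31* (24.4, 29.7 and 51.9 CPM in WT livers, against 51.1, 147, 76.2 and 58.1 CPM in *Mtm1*-/y) and *Cyp2c39*, with a list median of 0.10. Without WT library 3 the P450 list had 9 higher and 1 lower with a median of 0.41 (1.47% and 2.15% of all genes), and against *Mtm1*-/y library 1 alone 0 higher and 3 lower with a median of -0.21. Fatty acid oxidation had 3 of 23 members higher (*Vnn1*, *Plin2* and *Acadl*, log2FC 0.47, 0.51 and 0.27) and 0 lower, with a list median of 0.13, and lipogenesis had 1 of 23 lower, *Lpin2* (log2FC -0.67, SE 0.18). Acute phase genes had 2 of 26 members higher, *Cfb* and *Apcs* (log2FC 0.67 and 0.42), and 0 lower, and 1 to 6 were higher when each library was left out. Fatty acid oxidation gave 0 to 4 higher and lipogenesis 1 to 4 lower in those fits. The medians of lipogenesis and acute phase genes were -0.16 and 0.12 with all libraries. Against *Mtm1*-/y library 1 alone the medians were -0.13 for fatty acid oxidation, 0.11 for lipogenesis and -0.02 for acute phase genes. In that fit the log2FC was 0.53 for *Vnn1*, -0.05 for *Plin2*, 0.07 for *Acadl*, -1.06 for *Lpin2*, 0.53 for *Cfb* and 0.53 for *Apcs*. Pericentral and periportal genes had medians of 0.20 and 0.03. Of 25 interferon-stimulated genes, 24 cell cycle genes and 21 clock genes, 0 had an unadjusted p under 0.05 with all libraries, with medians of 0.05, 0.34 and -0.08. The cell cycle genes differed between livers, with 9 of 24 higher and a median of 0.72 without *Mtm1*-/y library 4 (2.06% of all genes were higher) and 12 of 24 higher and a median of 1.02 against *Mtm1*-/y library 1 alone (2.33%). The clock genes had 3 lower without *Mtm1*-/y library 2 (3.38% of all genes were lower). Against *Mtm1*-/y library 1 alone the interferon-stimulated genes had a median of -0.07. Female-pattern genes had the highest median of the pathway lists, 0.66 over 8 genes, but none of the 8 had an unadjusted p under 0.05, and without WT library 3 the median was 1.92 with 3 of 8 higher.

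**Figure D4:**
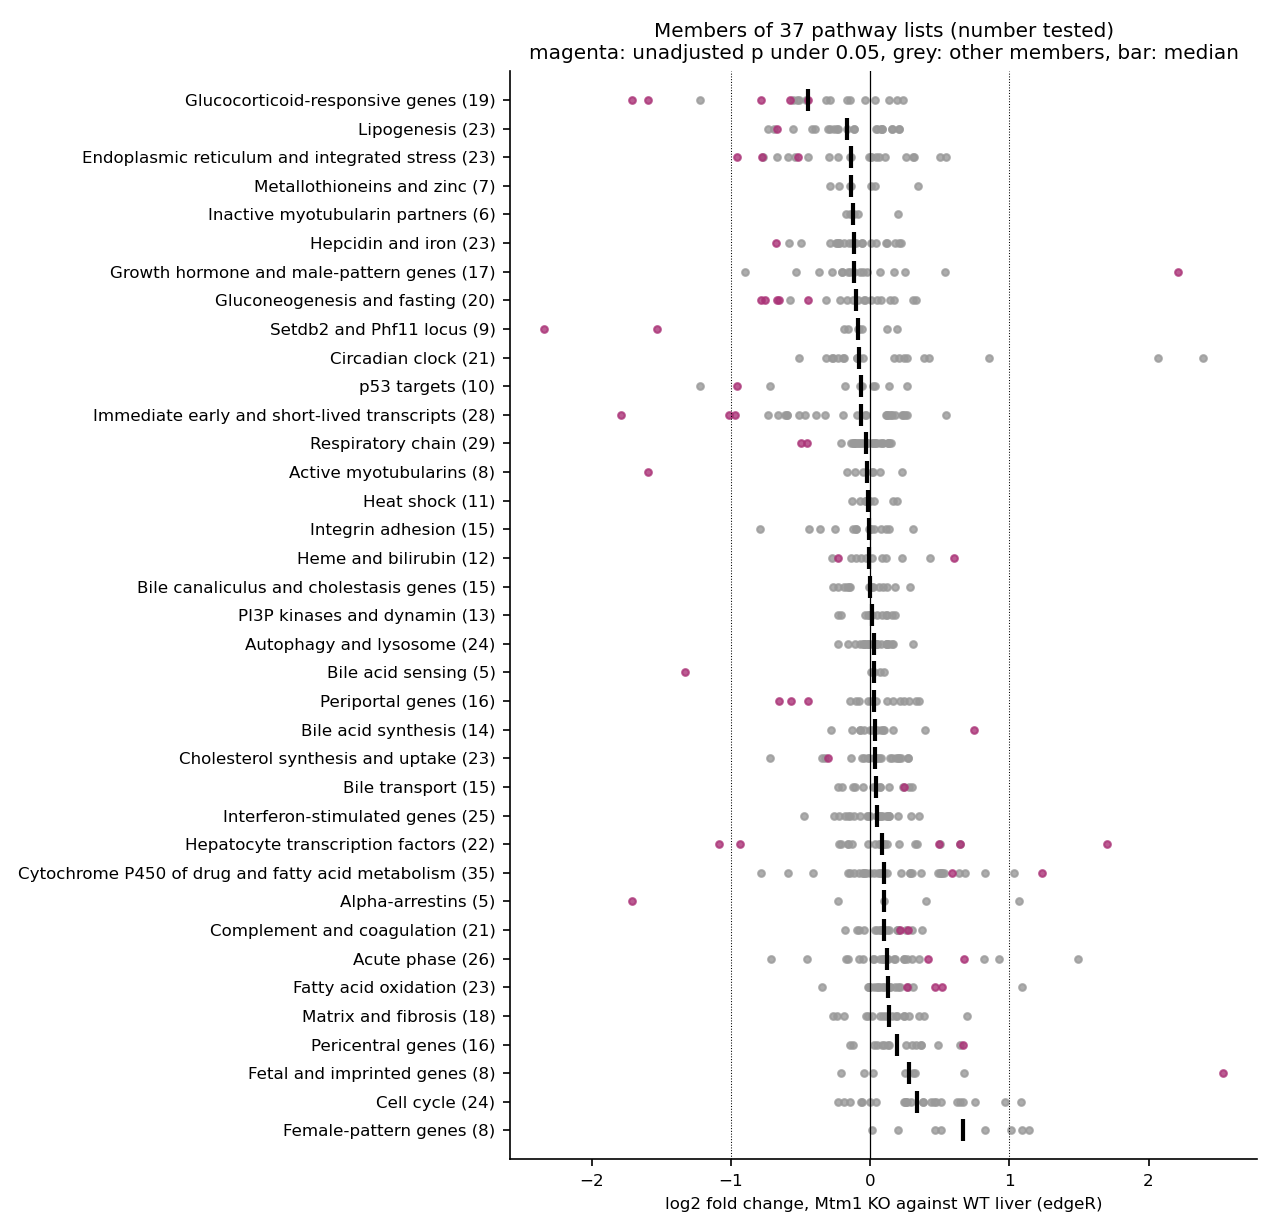
Log2 fold change between *Mtm1*-/y and WT livers (horizontal axis, edgeR) of the tested members of 37 pathway lists (rows, with the number tested), with dotted lines at -1 and 1. The median bar lies at -0.44 for the glucocorticoid-responsive genes and at 0.66 for the female-pattern genes, and most members lie within the dotted lines.

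Genes that act on the same phosphoinositides had values close to 0. Of the 8 active myotubularins tested, *Mtm1* was the only one with an unadjusted p under 0.05, and *Mtmr1*, *Mtmr2* and *Mtmr6* had log2FC of 0.07 (SE 0.11), 0.02 (SE 0.10) and 0.23 (SE 0.11). Of 6 inactive partners and of 13 genes of PI3P kinases and dynamin, 0 had an unadjusted p under 0.05. *Dnm2*, the dynamin of membrane fission, was at 56.8, 56.3 and 51.6 CPM in WT and at 58.5, 49.8, 56.0 and 53.2 CPM in *Mtm1*-/y livers, a log2FC of -0.01 (SE 0.09). All 24 genes of autophagy and the lysosome had a 95% interval within -1 and 1.

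The summed markers of 16 cell types gave a smallest adjusted p of 0.549 by an exact two-sided permutation test, in which a single list among 16 cannot fall below 0.457 with these numbers of livers. The groups did not overlap for 1 of the 16, the NK cell markers, and neither did they for 6.09% of all genes tested. The NK cell markers summed to 0.848, 1.00 and 1.28 CPM in WT and 0.791, 0.253, 0.454 and 0.806 CPM in *Mtm1*-/y livers. Of these 6 genes, 0 passed the filter on low counts, so nothing is read from this sum. Kupffer cell markers, those of the resident macrophages, summed to 250, 272 and 282 CPM in WT and to 275, 60.3, 203 and 206 CPM in *Mtm1*-/y livers, so that the groups overlapped through *Mtm1*-/y library 1. Sinusoidal endothelium markers summed to 394 to 445 CPM in WT and to 265 to 445 CPM in *Mtm1*-/y, and stellate cell markers to 261 to 339 and to 203 to 290 CPM. Fewer cells of a type and less RNA per cell cannot be told apart in whole liver.

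The genes that fell in liver were set beside their values in the other tissues. *Arrdc2* was lower in each, with a log2FC of -1.45 (SE 0.29, adjusted p = 0.00523) in the gastrocnemius, -1.47 (SE 0.35, adjusted p = 0.255) in the diaphragm and -1.25 (SE 0.20, adjusted p = 0.377) in the heart, by edgeR in each tissue alone, where 29.2%, 0.0119% and 0.00656% of genes passed the adjusted p. The liver effect of *Arrdc2* differed from that of the gastrocnemius by -0.24 on the log2 scale (95% interval -1.18 to 0.71). *Phf11c* and *Setdb2* differed more, with a liver effect minus gastrocnemius effect of -1.86 (SE 0.40, adjusted p = 0.0139) and -1.37 (SE 0.27, adjusted p = 0.0102) on the log2 scale, by the interaction contrast of edgeR, which called 1150 of 17179 genes (6.69%). The gastrocnemius held little of either gene, 1.09 CPM of *Phf11c* and 4.81 CPM of *Setdb2* in WT. *Abcd2* had opposite signs, at -0.71 (SE 0.08, adjusted p = 0.000323) in the gastrocnemius, and the difference of 1.57 (SE 0.18) passed with an adjusted p of 0.000659. Against the diaphragm and the heart, 0 of 17347 and 0 of 16941 genes differed in their genotype effect by edgeR (0% each), with 1017 and 972 genes at an unadjusted p under 0.05. In these tissues alone edgeR passed only 2 and 1 genes, and the study called more in both with DESeq2 and a fold threshold. The absence of calls therefore does not show that the effects were alike. In the heart the mean of *Setdb2* was 8.55 CPM in *Mtm1*-/y against 13.9 CPM in WT (log2FC -0.71, SE 0.18, adjusted p = 0.538), and *Phf11c* at 2.35 and 1.80 CPM.

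**Figure D5:**
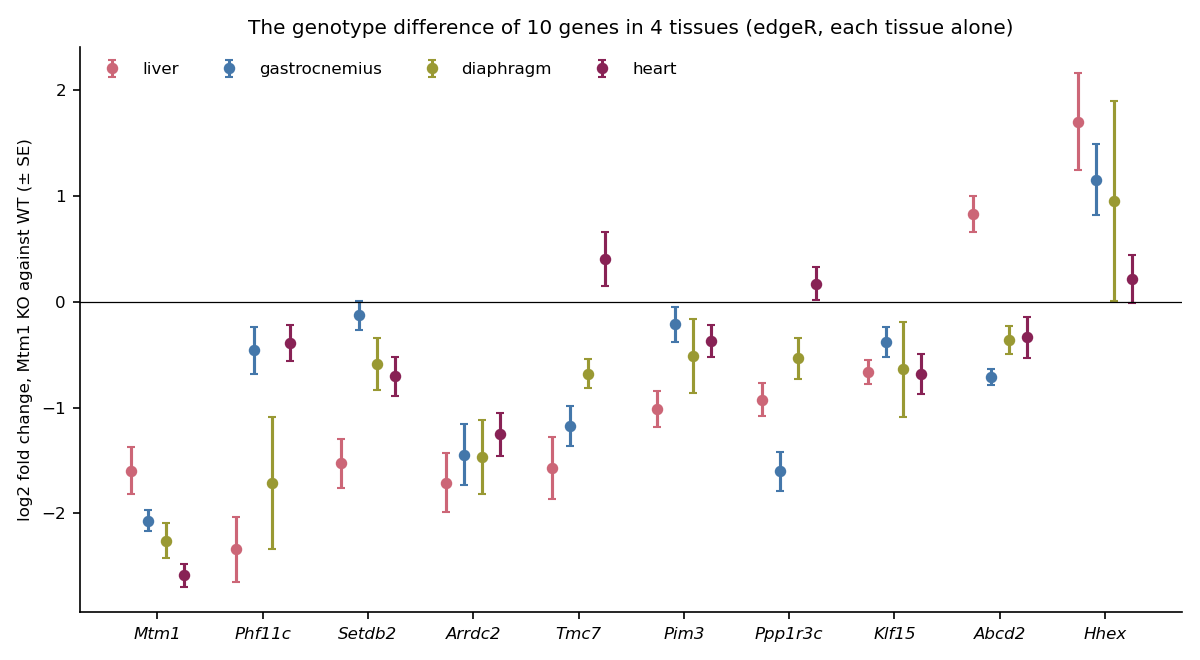
Log2 fold change between *Mtm1*-/y and WT (vertical axis; points, edgeR in each tissue alone; bars, SE) of 10 genes (horizontal axis) in the liver, gastrocnemius, diaphragm and heart. *Mtm1* and *Arrdc2* lie below -1 in all 4 tissues, *Phf11c* and *Setdb2* lie lowest in the liver, and *Abcd2* lies above 0 in the liver alone.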

How the data were processed

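RNA was extracted from whole snap-frozen livers of 3 WT and 4 *Mtm1*-/y mice and sequenced as stranded poly-A libraries. The authors deposited raw counts per gene. Per the labels and the study's methods, reads were demultiplexed with bcl2fastq 2.17.1.14, trimmed with cutadapt 1.10, aligned to mm10 with STAR 2.5.3a and counted with HTSeq 0.6.1p1, keeping uniquely aligned reads of 1 gene. The strand setting of the counting is not given in the sources used here, so reads of genes with an overlapping antisense partner are uncertain.

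Counts were filtered with filterByExpr (minimum count 10), scaled by TMM and tested with edgeR 4.0.16 (quasi-likelihood, Benjamini-Hochberg adjustment) in R 4.3.3. DESeq2 1.42.0 was run as the study's own tool. Calls needed an adjusted p below 0.05 together with a change beyond 1 on the log2 scale. Differences between tissues were interaction contrasts in edgeR. Summed marker levels and principal components were compared by exact two-sided permutation tests over libraries. Intervals of count ratios cover counting error only. The scripts were tested on simulated data. Samples were grouped by the genotype and tissue of their labels.

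Genes were named by 5 parts of a rule: the liver genes the study names, which it chose on these samples, every gene called by either tool, up to 8 genes in each direction with the smallest edgeR p among those at a mean of at least 5 CPM without overlap, up to 3 members of each pathway list at an unadjusted p under 0.05 or else its 2 most abundant, and the most abundant member of each marker list. Members, gene lists and the naming rule were chosen with earlier results of these data known. Other genes named, among them *Malat1*, *Mybpc3* and the further list members, were chosen after their values were seen. Alternatives were other size factors, no filter on low counts, the legacy quasi-likelihood, all 30 libraries in 1 fit, limma 3.58.1 voom with sample weights, the replicate number as a block and leaving out each liver library in turn. A gene that the rule names is not reported here.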

Additional observations from a re-analysis of the deposited data

Results flagged for a closer look

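Of 121 levels checked in the *Mtm1*-/y livers, 17 had 1 library whose gap to the nearest of the others exceeded Dixon's critical value as a share of the range. Chance gives about 1 in 20 for independent values, but *Malat1*, *mt-Rnr2*, *Mir6236* and *Kcnq1ot1* were named because of this pattern and the marker sums share genes with single values, so the number is not read against chance. *Mtm1*-/y library 1 stood alone in 5 of them, with 1838 CPM of *Malat1*, 39.4 CPM of *mt-Rnr2*, 20.7 CPM of *Mir6236*, 17.9 CPM of *Kcnq1ot1* and 1.73 CPM of *4632427E13Rik*. For the first 4 of these RNAs the library lay near or above the WT livers, and the other 3 *Mtm1*-/y libraries were low. Alone among the *Mtm1*-/y livers, library 2 had 9.72 CPM of *Phf11c*, 262 CPM of the clock output gene *Tef*, 10.9 CPM of the imprinted RNA *H19* and 0.217 CPM of summed neutrophil markers. In the same way library 3 had 116 CPM of summed cholangiocyte markers, 81.4 CPM of *Spp1*, 10.0 CPM of summed pancreatic acinar cell markers and 8.24 CPM of summed white adipocyte markers. Library 4 had 2.39 CPM of *Tmc7*, 4.49 CPM of *Sdsl*, 9.38 CPM of *Trib3* and 200.7 CPM of *Itgb1*.

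The genotype effect of 24 of 109 genes examined differed between liver and gastrocnemius by edgeR's interaction contrast at an adjusted p under 0.05, which 1150 of all 17179 genes (6.69%) passed, and 640 to 1450 when each liver library was left out. Many of the 109 genes were chosen by their difference in the same liver libraries, so the 24 are not read against the share of all genes. The differences are given here as liver minus gastrocnemius on the log2 scale. Negative differences were found for *Egr1* (-4.29), *Gdf15* (-4.00), *Msln* (-3.96), *Phf11c* (-1.86), *Jaml* (-1.76), *Bok* (-1.60), *2200002D01Rik* (-1.56), *Pck1* (-1.47), *Lpin2* (-1.44), *4632427E13Rik* (-1.43), *Setdb2* (-1.37) and *Vnn1* (-0.93). Positive differences were found for *Myl2* (5.67), *Cyp2c39* (4.42), *Myh6* (4.38), *Apcs* (3.61), *Actc1* (3.18), *Ighm* (2.85), *Abcd2* (1.57), *Cyp39a1* (1.44), *Stab2* (1.40), *Bcorl1* (0.70), *Tsc22d2* (0.70) and *Zfp131* (0.68). Several of these genes are characteristic of 1 of the 2 tissues, as *Cyp2c39* and *Apcs* are of the hepatocyte.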

How the results depend on the processing

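The count of called genes depended on the tool and on single libraries. The 0 genes of edgeR became 19 with all 30 libraries in 1 fit and 12 with DESeq2, and ranged from 0 to 15 when each library was left out. The 12 genes of DESeq2 became 28 with all 30 libraries, 25 at the adjusted p alone and 43 with *Mtm1*-/y library 1 alone against WT (added after seeing the data), and ranged from 7 to 105 when each library was left out. Genes whose effect differed from the gastrocnemius ranged from 640 to 1450 when each liver library was left out, against 1150, with 640 without WT library 2 and 755 without WT library 3. For the diaphragm the count was 11 with all 30 libraries and 0 to 2 when each liver library was left out, and for the heart 0 to 6. With the replicate number as a block, DESeq2 called 27 genes, of which 8 were among the 12, and edgeR 0. The labels do not say whether equal numbers mark a pair. The deviations of WT livers 1, 2 and 3 correlated with those of the same-numbered *Mtm1*-/y livers at 0.423, -0.01 and 0.235. WT libraries 1 and 3 correlated best with the same number and WT library 2 with *Mtm1*-/y library 4 (0.333), so a pairing remained undecided. Of the single gene values, 16 genes changed sign, each on leaving out a library. By limma voom the log2FC became -0.41 for *Acta1*, 0.16 for *Hsph1*, -0.29 for *Nr1d1*, -0.012 for *Slc39a4*, -0.36 for *Tef* and -0.25 for *Tk1*, and with the replicate block -0.28 for *Cd4*, -0.25 for *Col3a1*, -0.044 for *Nr1d1* and -0.23 for *S100a9*. On leaving out a library the log2FC ran from -0.31 to 1.47 for *Acta1*, -0.22 to 0.32 for *Cd4*, -0.72 to 0.54 for *Col3a1*, -0.057 to 0.025 for *Dnm2*, -1.35 to 0.25 for *Eln*, -0.072 to 0.044 for *Fn1*, -0.45 to 0.52 for *Hsph1*, -0.014 to 0.13 for *Lamp1*, -0.46 to 0.48 for *Nr1d1*, -0.16 to 0.53 for *S100a9*, -0.18 to 0.10 for *Slc39a4*, -0.011 to 0.53 for *Spp1*, -0.056 to 0.17 for *Stat2*, -0.56 to 0.69 for *Tef*, -0.51 to 0.38 for *Tk1* and -0.037 to 0.085 for *Tmem30a*. The cause of these shifts was not tested. With 3 and 4 livers, genes below about 5 CPM often had intervals wider than 2-fold in either direction.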
